A study of Mus musculus with 9 samples.

Results

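Pre-mRNA splicing factors were followed in prostate stroma of CR2-TAg mice by taking every gene of the array whose symbol in the platform's probe table began with Srsf and a digit, Hnrnp, Snrp, Sf3a or Sf3b, or Prpf. The choice used names alone and no measured value. It gave 50 genes out of 8106, carried by 86 cDNA clones, and all 50 had enough values to be tested. They fell into 5 classes: 8 Srsf genes (Srsf1 to Srsf6, Srsf10 and Srsf12), 16 Hnrnp genes, 9 Snrp genes, 8 Sf3 genes and 9 Prpf genes.

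The tested samples were stroma of invasive cancer from 6 mice at 24 weeks of age, and they were compared with stroma around prostate intraepithelial neoplasia (PIN), the lesion that precedes invasion, from 3 mice at 10 weeks (PIN 2, 3 and 4). All mice were male, on the FVB background, and carried the SV40 large T antigen under regulatory elements of the cryptidin-2 gene. These drive it in neuroendocrine cells of the prostate. Whether a difference is a response of the stroma to the tumor beside it was not tested. Age and stage changed together, and their parts in any difference cannot be told apart. Stroma was cut out by laser capture microdissection and its RNA was amplified, and each sample, labelled with Cy5, was hybridized against a Cy3-labelled pool of PIN stroma RNA, so every value is a log2 ratio of sample over pool and gives no absolute level. In RNA from whole stroma, fewer cells of a type and less RNA per cell cannot be told apart.

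Splicing removes introns from nascent transcripts and joins the exons. The work is done by the spliceosome, a machine built anew on each intron from small nuclear ribonucleoproteins (snRNPs). Each of these is an RNA with particle-specific proteins, and most carry a ring of Sm proteins. The Snrp genes encode Sm proteins and proteins of the U1 and U2 particles, the Sf3 genes encode subunits of the U2 particle that hold it at the branch site, and most Prpf genes encode proteins of the U4/U6.U5 particle or of the complexes that activate the spliceosome. Which exons are kept is tuned by SR proteins (Srsf), many of which bind exons and favor their inclusion, and by heterogeneous nuclear ribonucleoproteins (Hnrnp), which coat nascent RNA and often favor skipping. All cells need the core of this machinery, and which cells of the stroma used each of its genes was not measured.

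Of the 50 splicing factor genes, 1 was higher in invasive cancer stroma at an adjusted p under 0.15, the rate of false discoveries that the study allowed, and 0 were lower (limma, two-sided, adjusted over all genes). Over all genes tested, 3.75% were higher and 1.89% were lower at that threshold, so the share of the splicing genes (2%) was below the 5.64% for both directions. The 1 call was lost with the methods' t-test, which left 0 splicing genes passing at the same threshold, and after scale or quantile normalization. At an adjusted p under 0.05 the splicing genes gave 0 calls, against 0.938% of all genes. At an unadjusted p under 0.05, 4 were higher and 0 lower, and the shares over all genes were 9.18% higher and 5.8% lower.

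The differences between invasive and PIN stroma were small throughout. Their median over the splicing genes was 0.06 on the log2 scale (1.04-fold), with a range of -0.59 to 0.71, and the median over all genes was 0.02, with a range of -3.06 to 3.31. None of the 50 splicing genes (0) differed by more than 1 on the log2 scale of the arrays, that is by more than 2-fold in array ratio. Over all genes, 4.98% did. For 42 of the 50 (84%) the 95% interval of the difference lay wholly within 1 on either side of 0, against 73% of all genes, and for the remaining 8 the arrays did not bound the difference that closely. Signs leaned upward: 33 of the 50 (66%) had a difference above 0, against 52% of all genes. The range from 0.5 to 0.75 held 14% of the splicing genes and 5.92% of all genes.

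**Figure D1:**
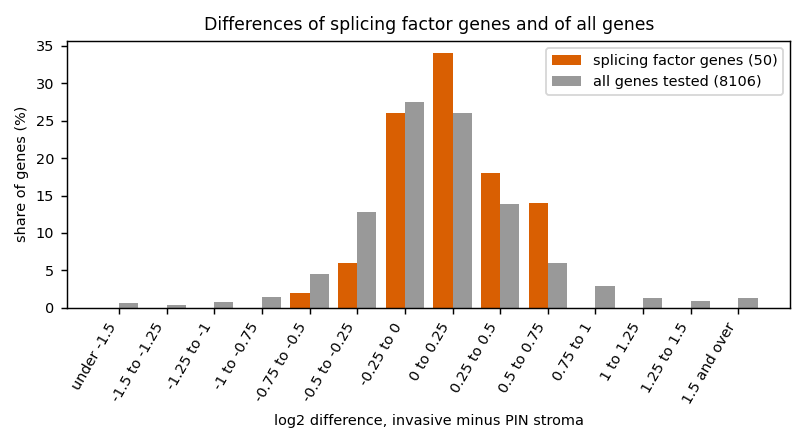
Share of genes (percent, vertical axis) in each bin of the difference, invasive minus PIN (log2, horizontal axis), for the 50 splicing factor genes and for all 8106 genes tested. The splicing genes filled the middle bins, with 34% between 0 and 0.25, and reached neither beyond -0.75 nor beyond 0.75.

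The heterogeneous nuclear ribonucleoproteins had the highest median difference of the 5 classes, at 0.23, and held the 1 call. Of the 16 genes, 13 had a difference above 0 and 3 below 0. Hnrnpa3 rose in invasive stroma, while the other 15 did not pass the test. In 4 of the 16 (Hnrnpa3, Hnrnpa0, Hnrnpa2b1 and Hnrnpc) the lowest invasive value exceeded the highest PIN value, with clones averaged on each array. That pattern was found in 5 of all 50 splicing genes (10%) and in 4.86% of all genes, and the opposite one in 0 splicing genes and 2.99% of all genes.

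Hnrnpa3 encodes an A/B-type hnRNP that packages pre-mRNA and binds RNA carrying the trafficking element known from its relative hnRNP A2. On the 6 invasive arrays it ran from 0.19 to 1.08 around a median of 0.65, against 0.05, -0.03 and -0.28 on PIN 2, 3 and 4. The lowest invasive array, invasive 1, was above the highest PIN array. The means were 0.63 ± 0.33 in invasive stroma (SD, n = 6) and -0.08 ± 0.17 in PIN stroma (SD, n = 3), a difference of 0.71 (SE 0.22, 95% interval 0.23 to 1.19), or 1.64-fold, with an adjusted p of 0.144 by limma. The call was close to the threshold. With the methods' t-test the adjusted p was 0.241, and after scale and quantile normalization it was 0.159 and 0.169 by limma. With limma as first fitted, the call was kept without invasive 1 (adjusted p = 0.0960, limma) or invasive 3 (0.123), and it was lost without any of the other 7 arrays, at adjusted p of 0.249, 0.228, 0.175 and 0.220 without invasive 2, 4, 5 and 6 and of 0.323, 0.318 and 0.284 without PIN 2, 3 and 4. The difference stayed between 0.61 and 0.80 over these 9 fits.

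The 6 clones named Hnrnpa3 did not move alike. All had differences above 0, but these ran from 0.07 to 1.07. In the fit over all clones, ordered here by p, the first reached an adjusted p of 0.0641 and the second 0.135 (limma), with differences of 1.07 and 1.06, while 2.16% of all clones passed at 0.15. The third and the fourth had differences of 0.83 and 0.87 and adjusted p of 0.197 and 0.264. The fifth averaged 0.44 on the invasive arrays and 0.08 on the PIN arrays, and the sixth averaged -0.05 on the invasive arrays and -0.12 on the PIN arrays. Clones of 1 symbol share a transcript and are not replicates, and cDNA clones of a gene family can bind transcripts of close relatives, whose part was not tested.

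**Figure D2:**
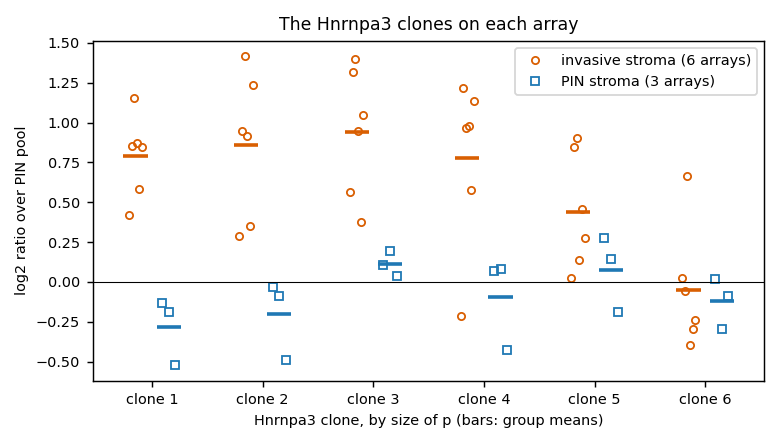
Log2 ratio of sample over the PIN pool (vertical axis) for each of the 6 cDNA clones named Hnrnpa3 (horizontal axis), a point per array, invasive left of PIN, with a line at each group's mean. Clones 1 to 4 had invasive means between 0.78 and 0.94, and the groups of clone 6 lay at -0.05 (invasive) and -0.12 (PIN).

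Hnrnpa0 and Hnrnpa2b1, of the same A/B type, had differences nearly as large that did not pass. Hnrnpa0, whose human product is known to bind AU-rich elements of inflammatory mRNAs, ran from 0.39 to 0.89 on the invasive arrays (median 0.62), against -0.05, 0.39 and -0.37 on PIN 2, 3 and 4. Its groups were separated by the narrowest margin, 0.391 on invasive 2 against 0.390 on PIN 3. The difference was 0.65 (SE 0.22, 1.57-fold, adjusted p = 0.167, limma). Hnrnpa2b1, which sorts mRNAs for transport and reads methylated adenosine, ran from -0.01 to 1.25 on the invasive arrays (median 0.52), against -0.19, -0.19 and -0.04 in PIN. Invasive 3 was the highest and invasive 5 lay close to PIN 4. Its difference was 0.66 (SE 0.27, 1.58-fold, adjusted p = 0.265), and its 3 clones lay close together at 0.61 to 0.72. In each of these clones taken alone the groups overlapped.

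Promoter sequences of these 3 A-type genes are shown because they had the 3 smallest p of the Hnrnp class and groups that did not overlap. Each is the 250 bases before the transcription start in RefSeq, build GRCm38.p6, read 5′ to 3′ on the gene's strand, at chr2:75659009-75659258 (plus strand) for Hnrnpa3, chr13:58128557-58128806 (minus strand) for Hnrnpa0 and chr6:51469895-51470144 (minus strand) for Hnrnpa2b1, the first of 2 starts listed for that gene. Capitals mark CCAAT, the CCAAT box, or TGACGT, the core of a cAMP response element, on either strand.
Hnrnpa3: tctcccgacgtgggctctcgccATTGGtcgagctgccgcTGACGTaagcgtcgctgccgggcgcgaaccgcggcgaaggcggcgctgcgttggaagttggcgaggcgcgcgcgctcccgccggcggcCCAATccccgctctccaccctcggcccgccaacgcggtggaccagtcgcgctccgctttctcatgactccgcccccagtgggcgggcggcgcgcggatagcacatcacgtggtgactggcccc
Hnrnpa0: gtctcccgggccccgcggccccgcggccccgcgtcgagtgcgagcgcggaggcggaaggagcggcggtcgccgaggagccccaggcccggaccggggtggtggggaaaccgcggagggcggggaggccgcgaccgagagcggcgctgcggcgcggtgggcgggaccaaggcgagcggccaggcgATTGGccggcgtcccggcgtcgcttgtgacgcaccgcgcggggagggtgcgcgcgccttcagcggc
Hnrnpa2b1: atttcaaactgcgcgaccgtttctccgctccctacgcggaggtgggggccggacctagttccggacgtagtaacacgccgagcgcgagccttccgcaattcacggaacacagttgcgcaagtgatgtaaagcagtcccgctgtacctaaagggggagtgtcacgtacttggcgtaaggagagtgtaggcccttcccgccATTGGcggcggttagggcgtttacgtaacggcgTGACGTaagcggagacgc

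All 3 windows held a CCAAT box, which read ATTGG where it lay on the other strand, and Hnrnpa3 held 2. Hnrnpa3 and Hnrnpa2b1 also held TGACGT, in both cases inside the same 11 letters, TGACGTAAGCG. Of the other splicing genes whose groups did not overlap, Snrpe held neither motif (0 of each), and Hnrnpc held 4 CCAAT boxes and 0 TGACGT. The windows of Hnrnpa3 and Hnrnpa0 were rich in G and C, at 73.2% and 81.2%, and that of Hnrnpa2b1 was at 59.6%. A window was found for 44 of the 50 splicing genes and for 6589 of the 8106 genes. Motifs were counted on both strands, letter for letter. CCAAT occurred in 21 of the 44 (47.7%) and in 36.4% of all windows, and TGACGT in 8 (18.2%) and in 10.7%. CCGGAAG, a site of ETS factors, occurred in 14 (31.8%) and in 13.7%, and TATAAA in 4 (9.09%) and in 7.12%. GGGCGG, the GC box, was about as frequent in both, at 59.1% and 59.5%, while CACGTG occurred in 4.55% and in 9.0%, and GCGCATGC, the site of NRF1, in 0 and in 4.66%. A match describes the letters of the window and says nothing of binding in these samples.

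Further Hnrnp genes are named here after their values were seen. Hnrnpab, another A/B-type protein, had a difference of 0.66 and Hnrnpf, which binds G-rich runs, one of 0.55, with adjusted p of 0.350 and 0.493 (limma). Hnrnpc, which binds uridine tracts, had a smaller difference of 0.26 (adjusted p = 0.529), with invasive arrays from 0.08 to 0.33 and PIN arrays at 0.06, 0.05 and -0.23. Its groups did not overlap in the clone at 0.39 but did in those at 0.31 and 0.07. The lowest of the class was Hnrnpul2, a relative of the scaffold protein hnRNP U, which ran from -0.85 to 0.25 on the invasive arrays, against -0.18, 0.06 and -0.14 in PIN. Its groups overlapped (difference -0.14, SE 0.25, adjusted p = 0.859). Without the Hnrnp class the other 34 splicing genes had a median difference of 0.04, with 20 above 0 and 14 below, and 0 calls.

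**Figure D3:**
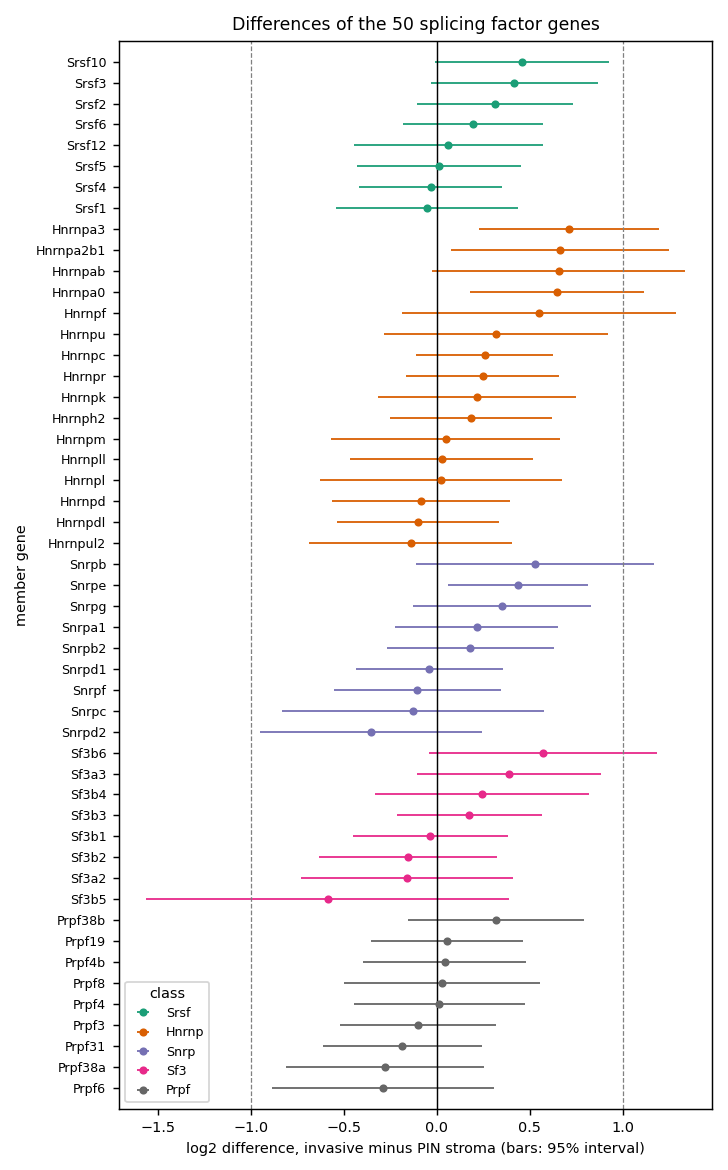
Difference, invasive minus PIN (log2, horizontal axis), with its 95% interval for each of the 50 splicing factor genes, grouped by class. The interval of Hnrnpa3 ran from 0.23 to 1.19, and that of Sf3b5, the lowest point, from -1.56 to 0.39.

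SR protein genes had small differences. The 8 Srsf genes had a median difference of 0.13 and a range of -0.05 to 0.46, 0 passed, and all 8 intervals lay within 1 of 0. Srsf10, which represses splicing when it loses its phosphates, ran from -0.14 to 0.75 on the invasive arrays (median 0.55), against -0.08, 0.18 and -0.09 in PIN. Only invasive 5 of the 6 invasive arrays lay within the PIN values or below them, and the difference was 0.46 (SE 0.22, adjusted p = 0.342, limma). Srsf3, a small SR protein that also acts in mRNA export, ran from -0.35 to 0.44 on the invasive arrays (median 0.29), against -0.20, -0.17 and -0.32 in PIN. Here invasive 1 was the array below the PIN values (difference 0.42, SE 0.21, adjusted p = 0.365).

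Srsf2, the SR protein that marks nuclear speckles, ran from 0.06 to 0.73 on the invasive arrays (median 0.28), against -0.15, -0.01 and 0.20 in PIN, a difference of 0.31 (SE 0.19, adjusted p = 0.492, limma). Its 3 clones disagreed, with differences of 0.82, 0.44 and -0.32. For the first of them the groups did not overlap, and its adjusted p over all clones was 0.162. Srsf1, the founding SR protein, was the lowest of its class, at -0.37 to 0.64 on the invasive arrays (median -0.11) and -0.10, 0.11 and 0.03 in PIN. All but invasive 3 were below 0, and the difference was -0.05 (adjusted p = 0.948), with a sign that turned without invasive 5 (0.015).

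The snRNP proteins split by gene. Of the 9 Snrp genes 5 had a difference above 0 and 4 below (median 0.18, range -0.35 to 0.53), and 0 passed. Snrpe, a subunit of the Sm ring, ran from 0.30 to 0.66 on the invasive arrays (median 0.48), against 0.12, 0.16 and -0.18 in PIN. Every invasive array was above every PIN array, and the invasive values lay within a narrow range, but the difference of 0.43 (SE 0.17, 1.35-fold) did not pass (adjusted p = 0.25, limma). Its 3 clones gave 0.31 to 0.56, and the groups were free of overlap only in the clone at 0.31.

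Snrpb, which encodes the Sm proteins B and B′, ran from -0.20 to 1.18 on the invasive arrays (median 0.12), against -0.27, -0.46 and -0.07 in PIN (difference 0.53, adjusted p = 0.437, limma). The spread among invasive arrays was wide, with 3 of them below 0. Snrpg ran from -0.09 to 0.88 (median 0.27), against -0.04, -0.06 and -0.03 in PIN (difference 0.35, SE 0.22, adjusted p = 0.503). Snrpd2 went the other way, at -0.97 to 0.35 (median -0.37), against 0.41, -0.05 and -0.25 in PIN (difference -0.35, SE 0.27, adjusted p = 0.611). These proteins sit in the same ring, and on these arrays their transcripts had differences on both sides of 0, none of them past the threshold.

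The Sf3 subunits had 4 differences above 0 and 4 below (median 0.07), 0 passed, and they held the lowest of all 50. Sf3b6, the small protein that lies at the branch point adenosine, ran from 0.04 to 1.10 on the invasive arrays (median 0.49), against -0.33, -0.28 and 0.39 in PIN (difference 0.57, SE 0.28, adjusted p = 0.364, limma). Sf3a3 ran from -0.41 to 0.70 (median 0.11), against -0.34, -0.19 and -0.23 in PIN (difference 0.39, SE 0.23, adjusted p = 0.468). In both the groups overlapped, through PIN 4 in Sf3b6 and through invasive 1 in Sf3a3. Sf3b5, another small subunit of the same complex, ran from -1.10 to 1.20 on the invasive arrays (median 0.00), against 0.05, 0.06 and 1.49 in PIN. Its difference of -0.59 (SE 0.45, adjusted p = 0.604) leaned on PIN 4 and was -0.11 without it.

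Prpf genes lay nearest to 0, with a median difference of 0.01, a range of -0.29 to 0.32, all 9 intervals within 1 of 0, and 0 calls. Prpf38b ran from 0.03 to 0.39 on the invasive arrays (median 0.19), against 0.17, 0.11 and -0.70 in PIN (difference 0.32, SE 0.22, adjusted p = 0.544, limma). PIN 4 alone stood below the invasive arrays, and without it the difference was 0.04. Its relative Prpf38a, needed in yeast to activate the assembled spliceosome, ran from -0.53 to 0.42 (median -0.19), against 0.18, -0.25 and 0.42 in PIN (difference -0.28, adjusted p = 0.666). Prpf6, a bridge between the U5 and U4/U6 particles, ran from -0.94 to 0.32 (median -0.27), against 0.14, -0.06 and -0.01 in PIN (difference -0.29, SE 0.27, adjusted p = 0.695). In both the groups overlapped, and the difference of Prpf38a was -0.13 without PIN 4.

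**Figure D4:**
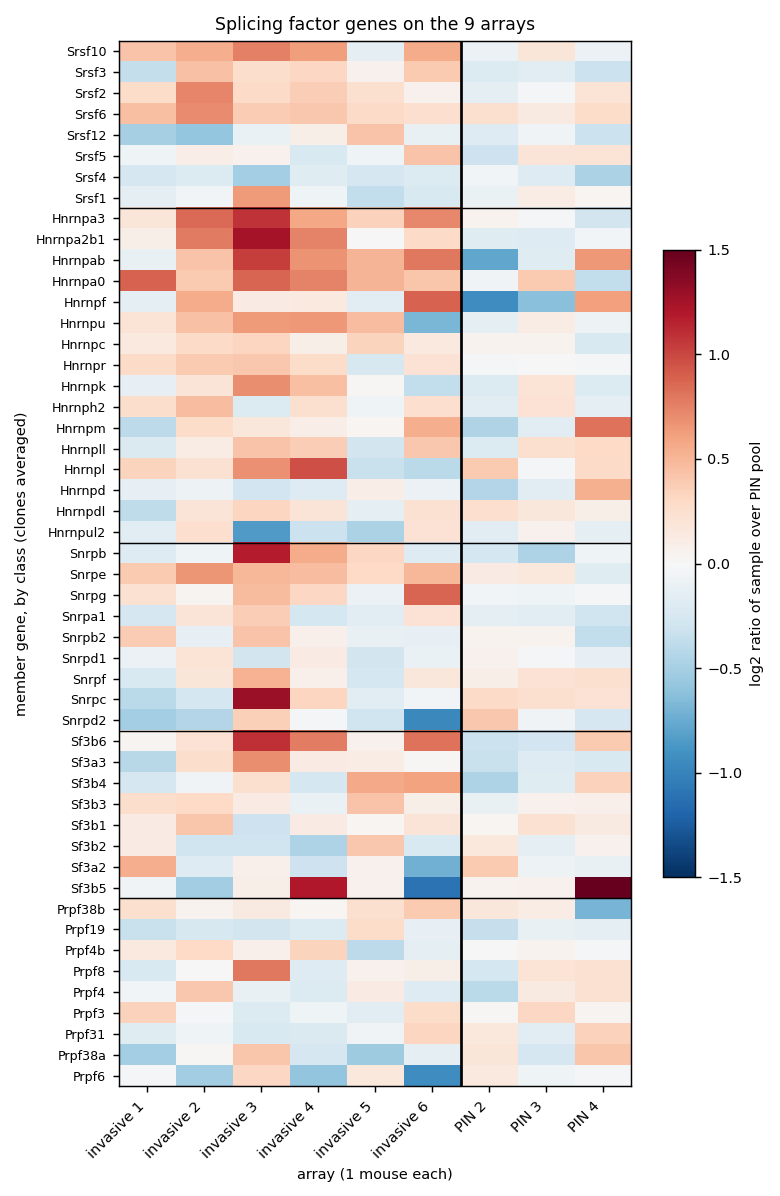
Log2 ratio of sample over the PIN pool (color) for the 50 splicing factor genes, in rows by class, on the 6 invasive and 3 PIN arrays, in columns. Warm colors gathered on invasive 3, where 20 of the 50 genes had their highest invasive value.

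Clones bounded how finely a gene could be read. Of the 50 splicing genes 29 had 1 clone and 21 several. Among the 21, the clones of 12 all had differences of the same sign and those of 9 had both signs, and the median distance between the lowest and the highest clone was 0.33. Sf3b2, named after its values were seen, had clones at 0.21, -0.06 and -0.61. Hnrnpu, named in the same way, had clones at 0.60, 0.50 and -0.15. Its clone at -0.15 read -3.37 on invasive 6 and 0.24 to 0.59 on the other invasive arrays.

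The median of the splicing genes differed between invasive arrays. It was 0.32 on invasive 3, 0.19 on invasive 2, 0.15 on invasive 6, 0.12 on invasive 4, 0.03 on invasive 5 and -0.06 on invasive 1, against -0.07, -0.01 and -0.02 on PIN 2, 3 and 4. Medians over all genes stayed within 0.03 of 0 on every array. Invasive 3 held the highest of the 6 invasive values for 20 of the 50 splicing genes (40%), against 22.4% of all genes, and invasive 1 for 3 (6%), against 16.5%. Invasive 3 also held the lowest invasive value for 8 of them (16%, against 24% of all genes). The Hnrnp median ran from -0.01 on invasive 1 to 0.42 on invasive 3, against -0.16, 0.02 and -0.03 in PIN, and the Snrp median from -0.20 to 0.48 on the same arrays, against 0.07, -0.03 and -0.12 in PIN. The Srsf median was likewise lowest on invasive 1 (-0.11) and highest on invasive 3 (0.28), against -0.12, 0.05 and -0.03 in PIN. The other classes did not follow this order: the Sf3 median stayed between 0.01 and 0.11 on all 6 invasive arrays, against -0.04, -0.11 and 0.10 in PIN, and the Prpf median was lowest on invasive 4 (-0.21) and 0.07 on both invasive 3 and invasive 5, against 0.02, 0.05 and 0.05 in PIN. On 8 of the 9 arrays the splicing genes were packed more closely than genes at large, with invasive 4 as the exception (0.580 for the splicing genes and 0.572 for all genes), and with interquartile ranges of 0.43 to 0.58 in invasive samples (0.52 to 0.69 over all genes) and of 0.29 to 0.41 in PIN samples (0.42 to 0.50 over all genes).

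Markers of other cells moved with invasive stroma, and some moved with the splicing genes between arrays. Of 25 proliferation genes measured, 12 rose and 0 fell, and their median was 1.91 on invasive 3, 1.06 on invasive 2 and 0.31 on invasive 1, against -0.24, -0.05 and 0.12 on PIN 2, 3 and 4. Thus invasive 3 was highest, invasive 2 next and invasive 1 lowest for both the proliferation genes and the splicing genes. Of 8 neuroendocrine tumor genes measured, 1 rose, with array medians of 0.43 to 2.21 on the invasive arrays and 0.29, -0.01 and 0.03 in PIN. Their median was highest again on invasive 3 but lowest on invasive 6 (0.43), with invasive 1 at 0.91. All 6 macrophage genes measured rose (0.84 to 2.83, lowest on invasive 3, against -0.38, 0.41 and -0.28 in PIN). Of 12 epithelial genes 1 rose and 1 fell, and their median was 0.64 on PIN 4 but -0.99 and -0.77 on PIN 2 and 3. Of the other lists, 7 of 16 fibroblast genes and 2 of 9 endothelial genes rose. Both had their lowest invasive median on invasive 3, at 0.26 (1.21 to 1.37 on the others) and 0.32 (1.18 to 1.64). In PIN the medians were 0.12, 0.32 and -0.62 for fibroblast genes and 0.05, 0.12 and -0.03 for endothelial genes. Of the smooth muscle genes 5 of 9 fell, with a median of -0.34 on invasive 3 and -3.33 to -0.90 on the other invasive arrays. For skeletal muscle 0 of 2 genes passed. The part of these cells in the splicing values was not tested, and ratios against a pool cannot show whether a marker was absent.

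**Figure D5:**
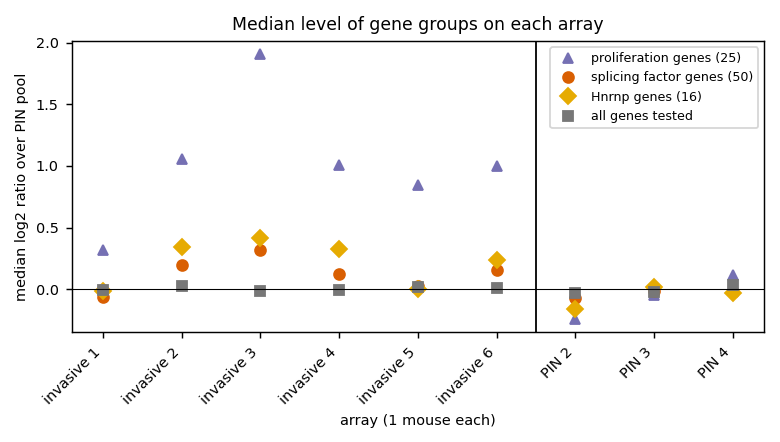
Median log2 ratio of sample over the PIN pool (vertical axis) on each array (horizontal axis, invasive arrays left of PIN arrays) for the 25 proliferation genes measured, the 50 splicing factor genes, the 16 Hnrnp genes among them and all genes tested. On invasive 3 the splicing genes stood at 0.32 and the proliferation genes at 1.91, and on invasive 1 at -0.06 and 0.31.

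PIN 4 stood apart from PIN 2 and 3. Over all clones it correlated with them at r = 0.176 and 0.189, while arrays within the invasive group ran from 0.256 to 0.769 (Pearson, across clones, which are not independent replicates). Over the 50 splicing genes, which share amplification and array, r was -0.282 between PIN 2 and 4, -0.175 between PIN 3 and 4, and 0.401 between PIN 2 and 3. Without PIN 4, 2 splicing genes were higher at an adjusted p under 0.15 (limma), Hnrnpab and Hnrnpf (4%, against 4.94% of all genes), Hnrnpa3 was not among them, and groups did not overlap in 11, all higher in invasive stroma (10.9% of all genes).

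The rest of the splicing machinery gave a like picture. Of 112 further spliceosome, exon junction and snRNP assembly genes, 78 were measured, with 0 calls and a median difference of 0.04. Dhx15, the helicase that takes spent spliceosomes apart, came nearest, with invasive arrays from 0.18 to 0.96 (median 0.52), against -0.27, -0.03 and -0.14 in PIN (difference 0.65, SE 0.21, adjusted p = 0.157, limma). Ddx39a, a helicase that loads export factors on mRNA, ran from -0.25 to 1.15 (median 0.93), against -0.43, 0.11 and 0.04 in PIN (difference 0.85, SE 0.29, adjusted p = 0.178). In Dhx15 no invasive array fell among the PIN arrays, and in Ddx39a invasive 1 did.

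Of 54 further regulators of splicing, 40 were measured, 1 rose and 0 fell, and the median difference was -0.00. Differences were above 0 in 20 (50%) and below 0 in 20. Groups did not overlap in 4 that were higher and 1 that was lower, against 4.86% and 2.99% of all genes. The 1 gene that passed was Raly, an hnRNP C-like protein that binds uridine-rich RNA. It ran from -0.05 to 0.62 on the invasive arrays (median 0.23), against -0.38, -0.24 and -0.63 on PIN 2, 3 and 4, so its PIN arrays lay below the pool and its invasive arrays mostly just above it. The difference was 0.66 (SE 0.20, adjusted p = 0.133, limma). With the invasive arrays set against 0 instead, their mean of 0.25 did not pass (adjusted p = 0.196, limma). Among the 9 fits that left out an array the call was kept only without invasive 3 (adjusted p = 0.0632), and elsewhere the adjusted p ran from 0.165 without invasive 1 to 0.333 without PIN 2.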

How the data were processed

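Stroma of 6 invasive prostate cancers (24 weeks) and 3 PIN lesions (10 weeks), each from a separate CR2-TAg mouse, was measured on 2-color spotted cDNA arrays. One PIN array of the study was not analysed here. After laser capture the authors amplified the RNA in 2 rounds, scanned the arrays and normalized each by print-tip lowess without background subtraction; software versions are not given in the sources used here. Deposited were log2 ratios, each of a sample (Cy5) over a pool of 4 PIN samples (Cy3). Dyes were never swapped, and the PIN samples are part of their pool, which may draw their values toward 0. Of 17664 clones, 457 had no value, and the others gave 17189 to 17206 values per array; the number of arrays limits the precision.

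Clones were named by the platform's probe table: 12563 had 1 symbol, 412 several and 4689 none. The mean of a symbol's clones was taken on each array, and clones with several symbols were left out, 5 of which listed a splicing gene. Genes measured on 4 or more invasive and 2 or more PIN arrays (8106) were fitted in R 4.3.3 by the functions lmFit and eBayes of limma 3.58.1, which tested invasive minus PIN two-sided, with Benjamini-Hochberg adjustment over all genes, and passed at an adjusted p under 0.15, with 0.05 beside it. The same was run over 17207 clones and tested on simulated data. Named were the genes that passed, in each class the 3 of smallest p and the highest and lowest difference, and in each pathway list up to 5 that passed or else the 2 of smallest p. Genes and lists were chosen with earlier results of these data known. Promoter windows came from RefSeq (GRCm38.p6), matched by gene symbol. Alternatives were other tests, array weights, scalings, filters, clone rules, a replicate block and leaving out each array.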

Additional observations from a re-analysis of the deposited data

Results flagged for a closer look

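Among the 6 invasive arrays, 3 of the 21 named genes had a value set far apart from the other 5, and none of the 6 medians tested had (0); such a gap arises by chance in about 1 of 20 groups. Srsf10 was at -0.14 on invasive 5, with the others at 0.43 to 0.75. Srsf1 was at 0.64 on invasive 3, with the others at -0.37 to -0.04. Ddx39a was at -0.25 on invasive 1, with the others at 0.79 to 1.15.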

How the results depend on the processing

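The number of splicing factor genes higher in invasive stroma, 1, was 0 by the methods' t-test with equal variances (which called 54 of all genes, 0.666%), by the t-test with unequal variances (207, 2.55%), after scale or quantile normalization, at an adjusted p under 0.05, and with the replicate block. It was 7 with array weights (14%, against 20.1% of all genes), and 9, with 1 lower, when invasive arrays were set against 0 (20%, against 32%). The number for the other splicing genes was 1 higher and 0 lower. It became 3 and 2 with unequal variances, 11 and 5 with array weights, and 15 and 15 against 0. It was 0 higher at an adjusted p under 0.05 and with the replicate block, and 1 lower by the clone of smallest p. With the methods' t-test 1 other splicing gene was higher, and it was not Raly (adjusted p = 0.204). Leaving out each array gave 0 to 2 splicing factor genes higher and 0 lower, against 0.457% to 11.1% of all genes called in either direction. The other splicing genes gave 0 to 3 higher and 0 to 1 lower. Splicing factor genes without overlap numbered 5 to 11, and 5.19% to 10.9% of all genes were higher without overlap. The number was 8 without invasive 5 or 6 (5.59% and 5.67% of all genes) and 11 without PIN 4 (10.9%). The median of the splicing factor genes was 0.06 to 0.13. Hnrnpa3 kept its direction in all 23 alternatives (0.61 to 1.07) and passed in 10 (adjusted p 0.0105 to 0.323), and Raly passed in 9 (0.25 to 0.90, adjusted p 0.0395 to 0.408). Same-numbered invasive and PIN arrays share only a number (correlations of deviations -0.0849, -0.0993 and -0.0182 for replicates 2, 3 and 4). With the replicate block, over the 3 numbers both groups share, the median of the splicing genes was 0.19, Hnrnpa3 was at 0.92 (adjusted p = 0.259, limma), Srsf1 turned to 0.16, and 90 of 8087 genes passed. Leaving out each array moved Srsf1 between -0.19 and 0.015, above 0 only without invasive 5. No other of the 21 named genes turned its sign under these 23 alternatives. The cause of these changes was not tested. With 3 PIN arrays, 8 of the 50 intervals reach beyond a 2-fold difference.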
